A study of Caenorhabditis elegans with 12 samples.

Results

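The coding promoters in the centre of chromosome II were followed here in sorted muscle cells across 4 genotypes of *Caenorhabditis elegans*. They are the 2386 windows, of 51519 in the whole table, that belong to a coding RefSeq transcript (identifier starting with NM_), cover 1700 bp on chromosome II and start between positions 4900000 and 12000000 of the ce10 assembly. Each window was taken to reach from 1500 bp upstream to 200 bp downstream of a transcription start site (TSS). That is longer than the promoter defined in the study's ATAC-seq methods. Of the 2386 windows, 2232 were matched by transcript to 1627 gene symbols of RefSeq (WBcel235), and the other 154 are named by their transcript. Windows of neighbouring genes and of alternative transcripts overlap, so the 2386 windows held 2235 distinct sets of counts and merged into 1237 separate stretches of sequence. Members are therefore not independent of each other: 1925 of them shared sequence with another window, 784 of them with the window of a noncoding transcript, and 303 genes had more than 1 window. The interval was set by position alone, with the coding windows of *R05F9.9* and *Y17G7B.23* just inside its left and right borders. Their levels in WT were 1940.4 and 1660.0 normalized counts, against 364 for *msp-32* and 1508 for NM_001027246, the nearest coding windows outside.

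Accessibility was measured by ATAC-seq, where Tn5 transposase cuts accessible DNA and attaches adaptors to it, so that the reads of a window count its cuts. The cells were muscle cells of L3 larvae, sorted for a red fluorescent protein under the *myo-3* promoter that, by the study's methods, is carried on the *gwIs4* array. The labels name the strains N2 (Bristol), called WT here, *met-2(n4256)*, *set-25(n5021)* and the double mutant of both alleles, with 3 libraries each. The study describes all libraries of a genotype as independent biological replicates, whereas the growth protocol in the labels names fewer, so p-values measure the spread between these libraries, part of which may be technical. In a bulk library, a lower count from fewer cells of a type and from less accessible DNA per cell cannot be told apart.

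Chromosome centres in *C. elegans* hold many widely expressed genes, whereas repeats and methylation of histone H3 on lysine 9 (H3K9me) are concentrated on the arms. MET-2, a homologue of mammalian SETDB1, deposits mono- and dimethylation, SET-25 deposits trimethylation, and the double mutant lacks both enzymes. H3K9me is a mark of compact chromatin, and the comparison between genotypes addresses whether promoters of a region that is largely euchromatic differ in accessibility when the enzymes are missing.

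Column totals ranged from 50148450 to 105547683 counts. For each gene of the fixed marker lists, its coding window with the highest WT mean was taken, which can raise the levels of every list. All 12 body-wall muscle markers then lay above the upper quartile of all windows in WT. *myo-3* was highest at 358878 normalized counts, and the array also carries its promoter. The 28 measured markers of pharynx, intestine, hypodermis, neurons and germline ranged from 791 to 1983, so none was at 0. Of these 28, 12 also lay above that upper quartile. The *met-2 set-25* libraries stood apart in how much of the signal lay in the most accessible windows. The share of autosomal counts in the 5% of autosomal windows that were highest in *set-25* (the 10 windows with the most counts left out), named the signal index below, was 9.11 to 10.02% in WT, 8.90 to 10.03% in *met-2*, 9.15 to 9.18% for *set-25* and 10.1 to 11.3% in *met-2 set-25*. All 3 libraries of *met-2 set-25* thus lay above the other 9, and genotype and signal index cannot be told apart in this design.

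Most members had similar levels. In WT their normalized counts (counts scaled by their column's total to the mean of the 12 totals) had a median of 1628 with quartiles of 1482 and 1773, against a median of 1512 over all 51281 windows with a count. The coefficient of variation over the 3 WT libraries had a median of 4.901%. The median over members was 1617 to 1632 in the WT libraries, 1577 to 1616 in *met-2*, 1600.3 to 1620.0 for *set-25* and 1521 to 1557 for *met-2 set-25*. The 3 double-mutant medians lay below the other 9, as did those over the whole table, at 1432 to 1479 against 1488 to 1532. Their spread was wider at the same time, since the distance between the quartiles was 340.0 to 436 in *met-2 set-25*, 279 to 356 in WT, 253 to 335 for *met-2* and 267 to 275 for *set-25*. Together the members held 4.82 to 4.893% of the counts of a WT library and 4.74 to 4.78% of those of a *met-2 set-25* library. The single mutants overlapped the double mutant in this share, with 4.78 to 4.86% in *met-2* and 4.77 to 4.81% in *set-25*.

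**Figure D1:**
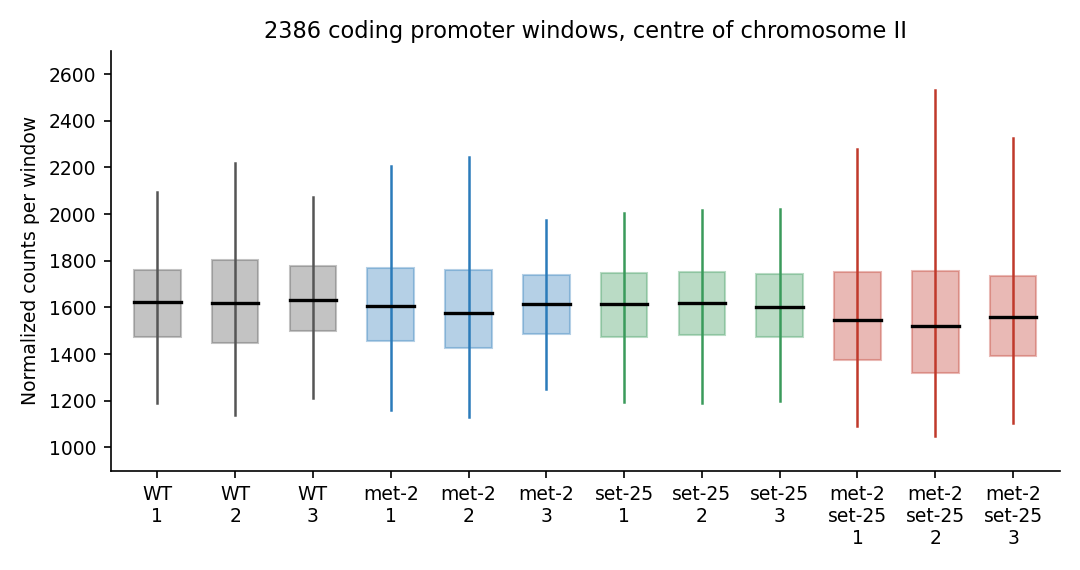
Normalized counts of the 2386 windows in each of the 12 libraries. Black lines are medians, boxes span the quartiles and vertical lines the 5th to the 95th percentile; the 3 *met-2 set-25* libraries have the lowest medians, 1521 to 1557, and the highest 95th percentiles, 2278 to 2529.7.

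The highest WT levels were at *din-1* (NM_182102), which encodes a corepressor that interacts with the nuclear receptor DAF-12. Its 3884 ± 643 normalized counts (SD, n = 3) were followed by 3775 ± 685 at NM_001383961, which overlaps the window of *F44E5.17*. *T24B8.3* (NM_001381551) had 3536 ± 441 and *mnk-1* (NM_063871), a kinase downstream of MAP kinases, 3402 ± 408. A second start site of *din-1* was the fifth locus at 3143 ± 366, and these 5 do not differ from their neighbours in this order by more than their SDs. The lowest levels were at *eif-3.L* and its neighbours. *eif-3.L* (NM_001348631) had 46.4, 38.4 and 23 normalized counts in the 3 WT libraries and 24.2, 28.2 and 37.9 in *met-2 set-25*, and NM_001383843, which overlaps *npl-4.1*, had 22.4, 35.3 and 28.5 and 36.8, 32.9 and 45.4. These low values lie beside the paired copies *npl-4.1* and *npl-4.2*, where reads from near-identical sequence could have been divided or lost, so they are uncertain. *R09D1.14*, *F09E5.8* and *R09D1.12* were the other low loci at 42.1 ± 8.02, 284 ± 31.4 and 322 ± 18, and none of the 5 passed the test in any comparison.

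In *met-2 set-25* against WT, promoters moved in both directions. At a false discovery rate (FDR) below 0.01 in edgeR's quasi-likelihood test, 50 of the 2386 windows rose (2.096%) and 60 fell (2.51%), beside 3.44% higher and 0.731% lower over all 51281 windows tested. The 50 higher windows held 47 distinct sets of counts in 31 stretches, and the 60 lower windows 51 sets in 39 stretches. All changes were small: log2FC of the called windows ran from 0.24 to 0.51 with a median of 0.35 for the higher and from -0.32 to -0.21 with a median of -0.26 for the lower. The median over all members was -0.070, against -0.041 over all windows tested. With TMM factors, another scaling of the libraries, these medians were -0.035 and -0.0066, and with DESeq2 they were -0.033 and -0.0047. Unless TMM factors or DESeq2 are named, levels and log2FC given here use the column totals. In 207 windows (8.68%) all 3 double-mutant libraries lay above all 3 WT libraries, beside 10.5% of all windows, and in 688 (28.8%) all 3 lay below, beside 17%.

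The gain with the smallest FDR was at a pair of divergent promoters. *ZK1307.1* (chrII:9655358-9657057, minus strand) had 1469, 1574 and 1661 normalized counts in WT and 1933, 2141 and 2150.0 in *met-2 set-25*. The 2 groups did not overlap, and the increase was 1.32-fold (log2FC of 0.40 ± 0.059 (SE), FDR = 6.50e-06). Its window overlaps that of *gstk-1* (NM_063681), a glutathione S-transferase of the kappa class, on the other strand, which had 1508, 1579.6 and 1721 in WT and 1939, 2152 and 2179 in *met-2 set-25* (log2FC of 0.38 ± 0.060 (SE), FDR = 2.52e-05). Counting was irrespective of strand, so these windows share most of their reads and count as 1 locus.

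*cex-2*, which encodes a calcium-binding protein of the calexcitin type, showed the largest log2FC of all called members. Its window (chrII:7836364-7838063, minus strand) had 1869, 2277 and 1639.5 in WT and 2604, 2863 and 2789 in *met-2 set-25*. Every double-mutant library was above every WT library, by 1.43-fold on average (log2FC of 0.51 ± 0.082 (SE), FDR = 2.90e-05). *C29F5.1* (chrII:6301893-6303592, plus strand) started lower, at 1159, 1502 and 1300.3 in WT, and reached 1621, 1872 and 1771 (log2FC of 0.40 ± 0.073 (SE), FDR = 2.17e-04), again without overlap.

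Both genes of the body-wall muscle list with a promoter in the interval rose. *sgn-1* (chrII:8783416-8785115, minus strand), a sarcoglycan of the dystrophin complex, had 2005, 2394 and 2011 in WT and 2769.8, 3015 and 2928 in *met-2 set-25*. The groups did not overlap, with the second WT library nearest to the mutants (log2FC of 0.44 ± 0.081 (SE), FDR = 2.30e-04). *unc-105*, a degenerin channel subunit of body-wall muscle, has 6 windows at its alternative starts, and all 6 rose with log2FC between 0.24 and 0.37. At the most accessible of them, NM_001129123, WT had 2208, 2769 and 2096 and *met-2 set-25* 2708, 3429 and 2999.8 (log2FC of 0.37 ± 0.090 (SE), FDR = 0.00461), where the lowest mutant library fell below the highest WT library. The other 5 *unc-105* windows overlap that of *ire-1*, the endoplasmic reticulum stress sensor, on the other strand (log2FC of 0.31). All 7 windows of the list were thus higher, beside 9 of the 12 muscle markers taken from the whole table. Of the 28 markers of other tissues, 0 were higher and 1 was lower by the same test. The part of the markers in these results was not tested. The 7 windows are of 2 genes and hold 6 distinct sets of counts. They were also more accessible, at a WT median of 2011 against 1628 for all members. That median was 2136 for the 12 muscle markers and 1539 to 1756 for the lists of other tissues. Of members in the highest decile by *set-25* mean, 15.9% rose, against 0 to 1.67% in the other deciles. Whether level accounts for the contrast between tissues was not tested. The mean level of the 12 muscle markers was 28998 to 35394 in WT and 38836 to 43539 in *met-2 set-25*, most of it from *myo-3*.

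*jun-1*, the homologue of the transcription factor c-Jun, had 2138, 2316 and 2013 in WT and 2661, 3072 and 2691 in *met-2 set-25* (log2FC of 0.38 ± 0.080 (SE), FDR = 9.99e-04). *vhp-1*, a phosphatase of MAP kinases, had 2098, 2211 and 1807 and 2524, 2825 and 2550.3 (log2FC of 0.37 ± 0.080 (SE), FDR = 0.00139). The groups were separate at both. To the right of *vhp-1* lay NM_001356836, a transcript with no matched symbol, with 1781, 2266 and 2008 and 2549, 2931 and 2453 (log2FC of 0.39 ± 0.078 (SE), FDR = 7.01e-04). The window of the second *din-1* start, shared with NM_001381614, had 2989, 3561 and 2879 and 3788, 4756 and 4309 (log2FC of 0.45 ± 0.097 (SE), FDR = 0.00147). The most accessible start of *din-1*, NM_182102, was also called (log2FC of 0.41), although the lowest mutant library, 4384, lay below the highest WT library, 4585.

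NM_001383961, which overlaps *F44E5.17* and *gpb-1*, the beta subunit of heterotrimeric G proteins, rose from 3657, 4511 and 3158 to 4619, 6028 and 5350.4 (log2FC of 0.50 ± 0.10 (SE), FDR = 8.11e-04). *T13H5.1* had 2319, 2653 and 2419 and 3036, 3619 and 3116 (log2FC of 0.40 ± 0.086 (SE), FDR = 0.00126). *T13C2.3* and *rabi-1* completed the 12 loci with the smallest FDR among those with separate groups, with log2FC of 0.30 and 0.27. Of the remaining higher windows, *mtrr-1*, a methionine synthase reductase, had a log2FC of 0.26. *lec-5*, a galectin, shared its stretch with *nep-25* and had 0.31. *pde-4*, a cAMP phosphodiesterase, rose at 2 windows (log2FC of 0.36 and 0.35). *ulp-4*, a SUMO protease, had 0.40, *lgg-1*, the autophagy protein of the GABARAP family, 0.35, and *cey-1*, a Y-box RNA-binding protein, 0.37. These last 6 genes were named after their values were seen.

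**Figure D2:**
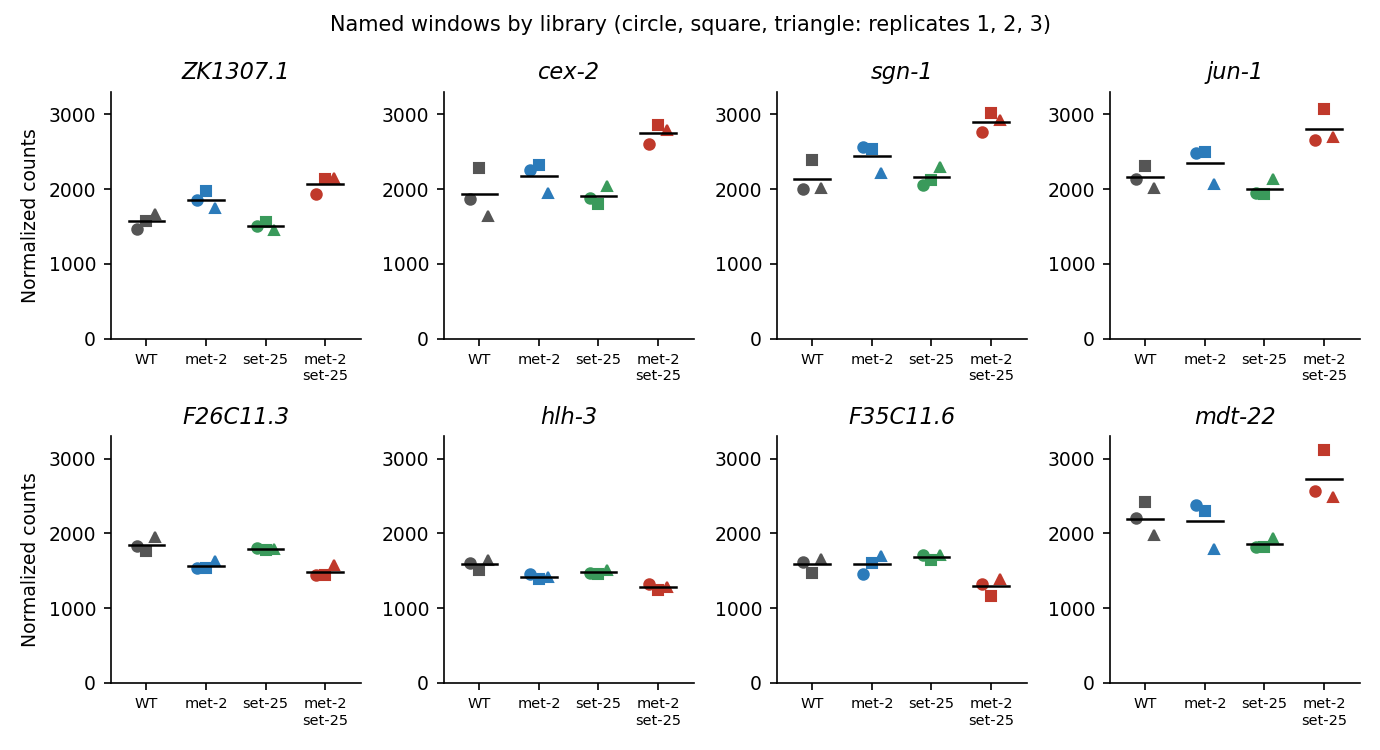
Normalized counts of 8 named windows in every library, with black lines at the mean of 3. The *met-2 set-25* libraries lie above WT at *ZK1307.1*, *cex-2*, *sgn-1* and *jun-1* and below WT at *F26C11.3*, *hlh-3* and *F35C11.6*. At *mdt-22* the *set-25* mean is the lowest, with libraries at 1813 to 1938, and *met-2* replicate 3 is at 1797.

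The windows that fell changed by less. The smallest FDR among them was at *F26C11.3* (chrII:9911039-9912738, minus strand), with 1834, 1759 and 1949 in WT and 1438, 1447 and 1579 in *met-2 set-25*. All 3 mutant libraries lay below WT (log2FC of -0.31 ± 0.056 (SE), FDR = 1.95e-04). *hlh-3*, a proneural helix-loop-helix factor, had 1604, 1512 and 1639.5 in WT and 1319, 1243 and 1280.3 in *met-2 set-25* (log2FC of -0.31 ± 0.060 (SE), FDR = 4.75e-04), and *ZK1127.3*, whose window overlaps that of *ZK1127.4*, had 1944, 1691 and 1862 and 1488, 1529 and 1493 (log2FC of -0.28 ± 0.057 (SE), FDR = 6.66e-04). Neither pair of groups overlapped. The other loci named by FDR were *F26C11.1*, *Y19D2B.1* and *W02B12.12*, with log2FC of -0.31, -0.32 and -0.28, and their groups were separate as well. Named after their values were seen, the lower windows included *kin-15*, a receptor tyrosine kinase known from the hypodermis (log2FC of -0.28), and the cuticlin-like genes *cutl-16* (-0.28), *cutl-12* (-0.25) and *cut-4* (-0.25). They also included *lov-1*, a polycystin of male sensory neurons (-0.29), and *znfx-1*, a helicase of germ granules (-0.22). These were picked from 42 genes with a lower window, which also held *ptb-1* (-0.23) and *decr-1.2* (-0.27), so no tissue is read from them. Of the 60 lower windows, 9 were transcripts of *srap-1* with identical counts (-0.21).

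Chemoreceptors, which act in sensory neurons, were the largest family examined. All 48 windows of the 45 chemoreceptor genes had a log2FC below 0 in *met-2 set-25*, with a median of -0.16 against -0.070 for all members and -0.041 for all windows tested. Of all members, 72.7% had a log2FC below 0. The chemoreceptor windows were also less accessible, with a median of 1413 normalized counts in WT against 1628, and all members of the lowest 2 deciles by level in *set-25* (means up to 1455) had median log2FC of -0.12 and -0.12. Of the 48 windows, 2 passed the test, *srh-135* (-0.26) and *sra-28* (-0.24). *srh-135* had 1576, 1574 and 1598 in WT and 1381, 1199 and 1399.6 in *met-2 set-25*, without overlap. With TMM factors 1 of the 48 windows passed, and their median was -0.12, against -0.035 for all members. Medians for other lists of genes outside muscle were -0.15 over 11 windows of neuronal genes, -0.13 over 13 of collagens, -0.10 over 13 of hypodermal genes and -0.11 over 13 of germline genes, and 0 of them passed the test.

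Of 10 C-type lectin windows, *clec-58* was lower (log2FC of -0.26) and the median was -0.16, with 0 called under TMM factors. Of 10 windows of cytochromes P450, *cyp-13A2* was higher (0.25) and the median was -0.078. Among 6 windows of helix-loop-helix factors, *hlh-3* was the 1 that fell. Genes used in every cell had medians of -0.043 over 10 windows of ribosomal proteins and -0.081 over 4 of the proteasome, with 0 called. The 4 intestinal windows had a median of -0.044, also with 0 called. The medians over 9 windows of major sperm proteins and 12 of synMuv and heterochromatin genes were -0.074 and -0.075, also with 0 called. Homeobox genes (20 windows of 5 genes) had a median of 0.10, most of them alternative starts of *ceh-38*, and nuclear hormone receptors (7 windows of 3 genes) one of 0.016. The 4 windows of F-box and MATH/BTB genes had 0.10 and the 2 of the pharynx list -0.11, and the interval held 0 histone windows by symbol. None of the homeobox, receptor, F-box or pharynx windows passed the test. These lists overlap in places, as *hlh-6*, *hlh-25* and *hlh-27* stand in 2 of them.

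The most accessible window of each list was followed as well, and none of those given here passed the test against WT. *hda-2*, a histone deacetylase, had 1812, 1725 and 1925 normalized counts in WT and 1864, 1626 and 1786 in *met-2 set-25* (log2FC of -0.051). *ceh-38*, a homeobox factor of the ONECUT class, had a log2FC of 0.13, *nhr-21* one of 0.024 and *bath-44* one of 0.13. Below 0 were the motor neuron homeobox gene *unc-4* (-0.15), the pharyngeal gland factor *hlh-6* (-0.084), the Pumilio-family gene *puf-8* (-0.10) and the cuticle collagens *sqt-1* (-0.13) and *col-39* (-0.11). *srd-2*, *clec-59*, *cyp-44A1*, *pho-1*, *msp-152*, *rpl-22* and *rpn-9* had log2FC of -0.18, -0.15, -0.19, -0.081, -0.15, -0.038 and -0.077, in that order.

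The transcription factors that the study examined and that lie in the interval did not pass the test. *hlh-25*, of the REF-1 family, had 1263, 1192 and 1302 in WT and 1064, 1152 and 1193 in *met-2 set-25* (log2FC of -0.14, FDR = 0.202). *hlh-27* of the same family had 1232, 1304 and 1195 and 1253, 1397 and 1285 (0.077, FDR = 0.499). The 2 windows of *klf-3*, a Krüppel-like factor, had log2FC of -0.062 and -0.072, with groups that overlapped.

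The number of calls in this comparison changed with single libraries and with the scaling, while the sizes of the changes moved less. Over the 50 higher windows, WT replicate 2 was the highest WT library at 45 and *met-2 set-25* replicate 2 the highest mutant library at 47, and these 2 libraries had the highest signal index of their genotypes. Without *met-2 set-25* replicate 2 the test called 5 higher and 2 lower windows, without WT replicate 3 it called 7 and 6, without WT replicate 1 10 and 15, and without WT replicate 2 106 and 115. Leaving out *met-2* replicate 3 gave 86 and 88, leaving out *met-2 set-25* replicate 3 gave 32 higher windows, and leaving out *met-2 set-25* replicate 1 gave 33 lower ones. In each of the 12 fits that left out 1 library, all 50 higher windows kept a log2FC above 0 and all 60 lower ones a log2FC below 0. The median of the 50 was then 0.27 to 0.43, lowest without *met-2 set-25* replicate 2, and that of the 60 was -0.27 to -0.22. The windows had been chosen with the same libraries, and the groups were separate at 45 of the 50 and at all 60. Leaving out 1 library cannot turn the sign of such a window, so the kept signs are no test of stability. The 7 windows called without *met-2 set-25* replicate 2 were *ZK1307.1*, *gstk-1*, *cex-2*, *sgn-1*, *C29F5.1*, *F26C11.3* and *ZK1127.3*, and each passed in all 12 fits that left out 1 library, except *ZK1127.3*, which passed in 10. With edgeR's TMM factors 63 windows rose and 23 fell, and with DESeq2 82 and 50, so that the share of higher calls was 45.5% as reported, 73.3% with TMM factors and 62.1% with DESeq2. When the signal index was added as a covariate, 0 windows passed edgeR's test (32 higher and 213 lower at an unadjusted p below 0.05), and the median log2FC of the 50 was then 0.10 and that of the 60 -0.17.

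The windows that rose were among the most accessible members. Members were ranked by their mean in *set-25*, whose libraries are not compared in this contrast but share the fit's estimate of spread. Without *set-25* replicate 1, 2 or 3, the test still called 38, 37 and 37 of the 50 higher windows. Of the 60 lower ones it still called 45, 47 and 47. The highest decile (means from 1879.6 to 3587 normalized counts) held 38 of the 50 higher windows and 0 of the 60 lower ones. In that decile 15.9% of 239 windows rose. The lower windows were spread over deciles 1 to 9, with between 3 and 11 in each. The median log2FC over all windows of a decile went from -0.12 in the lowest to -0.045 in the eighth and 0.15 in the highest. The *met-2* medians, against the same WT libraries, stayed between -0.022 and 0.0025. The signal index is built from the most accessible windows in *set-25*, as are these deciles, and its part in the pattern was not tested beyond the covariate above.

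**Figure D3:**
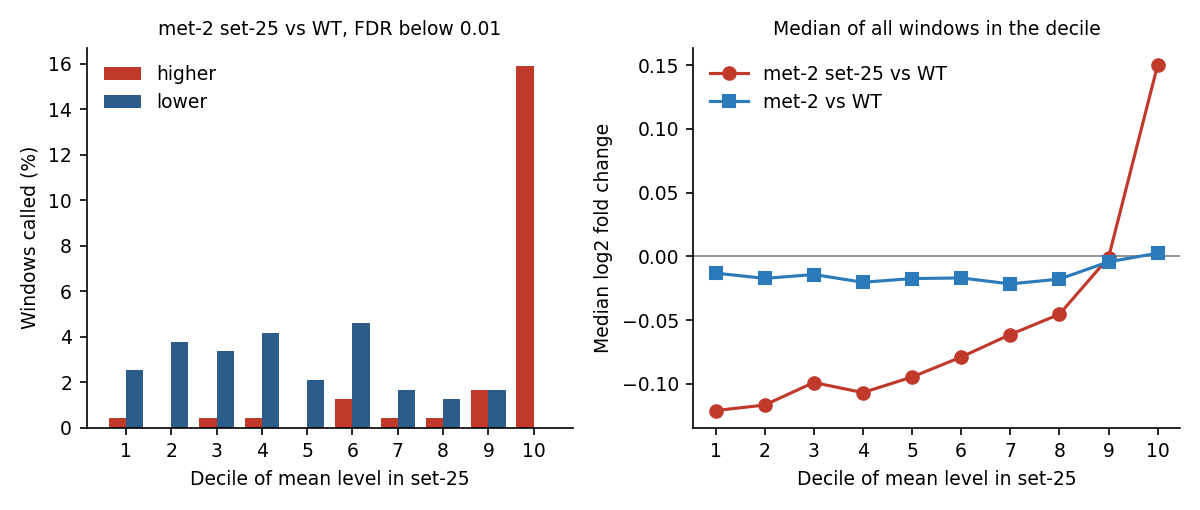
Members in deciles of their mean level in *set-25* (x axis). Left, percent of windows called in *met-2 set-25* against WT; 15.9% of the highest decile rose and 0 fell. Right, median log2FC of all windows in a decile, from -0.12 to 0.15 in *met-2 set-25* and near 0 in *met-2*.

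Along the interval, the windows that fell were more numerous towards the right. In steps of 1 Mb from the left border, 9, 10, 4, 11, 7, 1 and 8 windows rose, in 6, 8, 3, 5, 4, 1 and 4 separate stretches. In the same steps 2, 7, 3, 7, 8, 13 and 20 windows fell, in 2, 5, 2, 6, 6, 10 and 8 stretches. The seventh step has 9 of its 20 lower windows from *srap-1* alone, and the short stretch that remained at the right border held 31 windows and 0 calls. The median log2FC of all members in a full step lay between -0.10 and -0.039. Of the higher windows 28%, and of the lower 23.3%, overlapped a member on the opposite strand, against 39.1% of all members. Genes with a higher window were longer, with a median of 3158 bp over 31 genes, than genes with a lower window, 2374 bp over 42, and than all 1627 genes, 1873 bp (lengths from WBcel235). These shares are descriptions without a test.

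**Figure D4:**
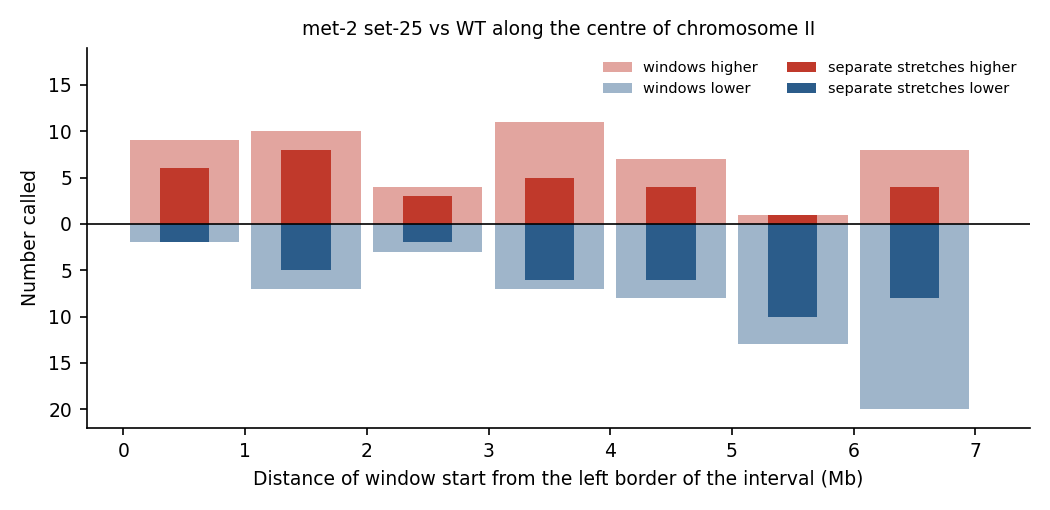
Windows called in *met-2 set-25* against WT by the distance of their start from the left border of the interval, in steps of 1 Mb (the last step is shorter). Bars above 0 are higher and bars below 0 lower; wide pale bars count windows and narrow bars count separate stretches, with 20 windows in 8 stretches lower in the seventh step.

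Loss of *met-2* alone left every member below the threshold. Of the 2386 windows, 0 were higher and 0 were lower in *met-2* against WT by edgeR's test, beside 0.0702% and 0.0312% of all windows, and 17 and 98 had an unadjusted p below 0.05. DESeq2 called 0 higher and 1 lower window, *F26C11.3*. The median log2FC was -0.013, and over all windows -5.7e-04. The smallest p-values were at *F26C11.3*, *ZK1307.1* and *gstk-1*. *ZK1307.1* had 1854, 1978 and 1748 normalized counts in *met-2*, all above WT (log2FC of 0.24 ± 0.060 (SE), FDR = 0.0877), and the overlapping *gstk-1* 1943, 1943 and 1744 (log2FC of 0.22 ± 0.061 (SE), FDR = 0.208). *F26C11.3* had 1530.2, 1542 and 1633, all below WT (log2FC of -0.24 ± 0.056 (SE), FDR = 0.0689).

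Loss of *set-25* alone likewise gave 0 higher and 0 lower windows with edgeR and with DESeq2, beside 0.0117% and 0.0156% of all windows by edgeR, while 49 and 140 had an unadjusted p below 0.05. The median log2FC was -0.018, and over all windows 0.0065. The smallest p-values were at *clpp-1*, a mitochondrial protease, with 1725, 1811 and 1855 in WT and 1641, 1507 and 1523 for *set-25* (log2FC of -0.21 ± 0.058 (SE), FDR = 0.436). At *chch-3* and *rpn-12*, a subunit of the proteasome's regulatory particle, log2FC was -0.19 and -0.20. The *set-25* libraries lay below WT at all 3, and none was called.

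The contrasts with WT share the same 3 WT libraries, so their values are given side by side and no agreement is read from them. The 50 windows higher in *met-2 set-25* had a median log2FC of 0.35 there, 0.091 in *met-2* and -0.064 in *set-25*. For the 60 lower windows the medians were -0.26, -0.098 and -0.052.

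Loss of *set-25* in a *met-2* background was compared as *met-2 set-25* against *met-2*. It gave 1 higher window (0.0419%, beside 0.367% of all windows) and 2 lower ones (0.0838%, beside 0.0371%). *C29F5.1* rose from 1464, 1493 and 1151 in *met-2* to 1621, 1872 and 1771 in *met-2 set-25*, without overlap (log2FC of 0.36 ± 0.072 (SE), FDR = 0.00401). *F35C11.6* fell from 1462, 1598 and 1696 to 1322, 1167 and 1390.1 (log2FC of -0.30 ± 0.062 (SE), FDR = 0.00550), and *chil-23*, a chitinase-like gene, from 1537, 1489.5 and 1648 to 1299, 1173 and 1354 (log2FC of -0.29 ± 0.063 (SE), FDR = 0.00761). The groups were separate at both. These counts were unstable: 0 windows were left in each direction without *met-2* replicate 3 or without *met-2 set-25* replicate 2, 0 higher ones without *met-2 set-25* replicate 3, and 9 higher and 8 lower windows were called without WT replicate 2. Without *met-2* replicate 2 they were 4 and 5, without WT replicate 3 2 and 4, and 1 window was lower without *met-2* replicate 1 and without each of the 3 *set-25* replicates. DESeq2 called 35 higher and 0 lower windows. A block for the replicate number called more windows than reported in each direction, with the counts given in the closing section on processing.

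Loss of *met-2* in a *set-25* background, *met-2 set-25* against *set-25*, gave the largest number of calls among the members. Here 188 windows rose (7.88%) in 95 stretches and 168 fell (7.04%) in 118, beside 7.64% and 3.77% of all windows. The log2FC of the higher windows had a median of 0.32 and that of the lower windows of -0.24. *ZK1307.1* had 1511, 1562 and 1451 in *set-25*, below all 3 libraries of *met-2 set-25* (log2FC of 0.46 ± 0.059 (SE), FDR = 1.47e-07). *T13H5.1* rose from 2144, 2224 and 2171 to 3036, 3619 and 3116 (log2FC of 0.58 ± 0.086 (SE), FDR = 2.14e-06), and *cex-2* from 1885, 1795 and 2036 to 2604, 2863 and 2789 (log2FC of 0.53 ± 0.081 (SE), FDR = 3.50e-06). *mdt-22*, a subunit of the Mediator complex, rose from 1813, 1821 and 1938 to 2564, 3123 and 2483 (log2FC of 0.55 ± 0.085 (SE), FDR = 3.53e-06). No libraries overlapped at these 4 loci.

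The lower loci with the smallest FDR in this comparison were *F35C11.6* (log2FC of -0.39), *lact-2* (-0.31) and *eff-1*, the fusogen of epidermal cells, which fell from 1879, 1924 and 1902 to 1572, 1468 and 1569.9 (log2FC of -0.31 ± 0.057 (SE), FDR = 5.57e-05). Genes of sensory and other neurons were among the windows that fell. Of 48 chemoreceptor windows, 11 were lower (median log2FC of -0.19 against -0.066 for all members and -0.057 for all windows), with *srb-16* (-0.30) and *sra-13* (-0.25) among them. Of 11 neuronal windows 5 were lower, at *rab-3*, a synaptic vesicle GTPase (-0.27), *tph-1*, the tryptophan hydroxylase of serotonin synthesis (-0.25), and *unc-104*, a kinesin of synaptic vesicle transport (-0.20). The *tph-1* window shares nearly all of its sequence with that of *fbxa-224* on the other strand (-0.24).

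At *rab-3* the *set-25* libraries had 1547, 1587 and 1630.5 and those of *met-2 set-25* 1312, 1296 and 1337, without overlap. Major sperm protein genes were lower at 3 of 9 windows, with *msp-63* at -0.29, and this family of near-identical genes is uncertain in counts. The collagen *col-80* (-0.23), the lectins *clec-143* (-0.23) and *clec-58* (-0.25) and the cytochrome *cyp-13A5* (-0.25) were also lower, while *cyp-13A2* was higher (0.21). Of the 7 windows of the body-wall muscle list, 6 rose (median log2FC of 0.31). The split depended on the scaling, with 247 higher and 55 lower windows under TMM factors and 280 and 109 with DESeq2. Without *met-2 set-25* replicate 2 the counts were 68 and 25, without *met-2 set-25* replicate 1 100 windows were lower, and without *set-25* replicates 1, 2 and 3 the test called 105, 114 and 116 higher and 63, 64 and 86 lower windows. Once the signal index was a covariate, 0 windows passed edgeR's test (45 higher and 113 lower at an unadjusted p below 0.05).

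Other regions of coding promoters were set beside the centre of II with the same fit and threshold. For *met-2 set-25* against WT, 39 of 2281 tested windows on the arms of II rose and 7 fell (1.71% and 0.307%), against 2.096% and 2.51% in the centre. The centre of III had 47 higher and 37 lower windows of 2006 (2.34% and 1.84%), and the centre of V 88 and 1 of 2025 (4.35% and 0.0494%). The centre of II thus had the highest share of lower calls of these 4 regions, with the centre of III next. Its 60 lower windows held 51 distinct sets of counts, and the 37 of the centre of III held 35. All 3 double-mutant libraries lay below WT in 28.8% of windows in the centre of II and in 30.4% in the centre of III. With TMM factors 23 windows fell in the centre of II, and the regions are given here under the reported scaling only. The median log2FC was -0.070 in the centre of II, -0.033 on its arms, -0.073 in the centre of III and -0.0023 in the centre of V. The difference between regions was not tested, since windows of a region are not replicates and share reads.

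**Figure D5:**
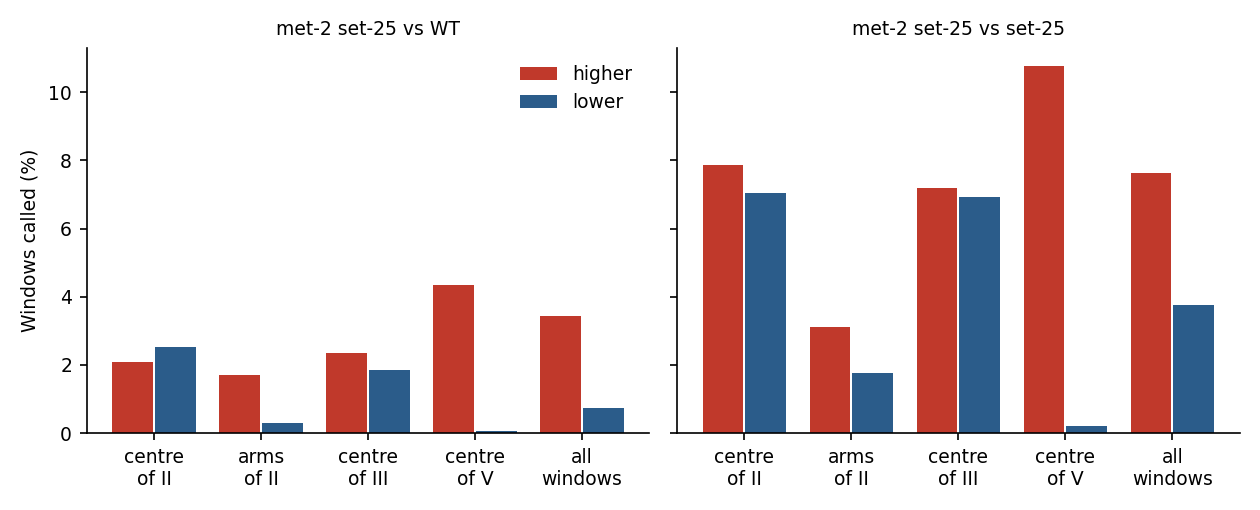
Percent of coding promoter windows called at an FDR below 0.01 in 4 regions, and of all windows tested, for *met-2 set-25* against WT (left) and against *set-25* (right). Against WT, 2.51% of windows in the centre of II fell, 1.84% in the centre of III and 0.731% of all windows.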

How the data were processed

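The libraries, groups and replicate numbers follow the labels. The authors trimmed adaptors with cutadapt, aligned reads to ce10 with bowtie2, removed duplicates with Picard, split pairs into single reads with bedtools 2.26, applied the Tn5 shift and used QuasR to count reads of either strand in promoter windows. The deposited values are whole-number counts without normalization. The handling of multiply mapping reads is not given in the sources used here. Windows overlap, so column totals, 50148450 to 105547683, are sums over windows and not sequencing depth; members had a median of 1013 to 2074 counts in a library, and spread between libraries exceeded counting noise in every pair of replicates.

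The two-sided quasi-likelihood test of edgeR 4.0.16 (glmQLFTest, R 4.3.3) was applied to all 12 libraries in 1 model, with column totals as library sizes and Benjamini-Hochberg adjustment over the 51281 windows with a count; SEs come from log2FC and the F statistic. The study's methods name edgeR, total reads and an FDR of 0.01, and not which edgeR test. Gene symbols come from RefSeq (WBcel235), used for names and gene lengths alone. Members, gene lists and markers were chosen with earlier results of these data known.

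Windows were named by rule: overlapping called windows were merged, and the loci with the smallest FDR were taken (12 higher and 6 lower with separate groups against WT, 4 higher and 3 lower against each single mutant, the 3 smallest p-values where under 3 were called, the 5 highest and 5 lowest WT levels, every window of the muscle list and of the study's regulators, and for other lists up to 4 called genes and the highest). Alternatives were TMM factors, DESeq2 1.42.0, filterByExpr, a replicate block, an FDR of 0.05, the signal index as covariate, distinct windows of 1700 bp and each library left out in turn. The interaction contrast and the block together with TMM factors were added after the data were seen. Promoter sequences and their motifs were not analysed here. Summaries used Python 3.11.15 with pandas 2.3.3, numpy 2.4.6 and matplotlib 3.10.9.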

Additional observations from a re-analysis of the deposited data

Results flagged for a closer look

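One member passed the test when the change in *met-2 set-25* against WT was compared with the sum of the 2 single changes in the same edgeR fit. This contrast was run in the reported fit alone, without the alternatives used for the other calls. At *mdt-22*, which encodes a Mediator subunit (chrII:10299603-10301302, plus strand), this interaction had a log2 value of 0.58 ± 0.12 (SE; FDR = 0.00775). The window had 2200.4, 2414 and 1976 normalized counts in WT, 2383, 2302 and 1797 in *met-2* and 1813, 1821 and 1938 for *set-25*, while those of *met-2 set-25* were 2564, 3123 and 2483. The *set-25* libraries lay below WT and those of *met-2 set-25* above it, and *met-2 set-25* replicate 2, the library with the highest signal index, was the highest. At the same threshold 1 member was positive (0.0419%) and 0 negative, beside 54 positive (0.105%) and 20 negative (0.0390%) of all windows tested; with edgeR and no adjustment 283 and 339 members had a p below 0.05. The window overlaps that of *nep-26*. By edgeR's test it was not called against WT in *met-2 set-25* (FDR = 0.0114), *set-25* (FDR = 0.613) or *met-2* (FDR = 0.991).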

How the results depend on the processing

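The counts of called members depended on the fit. In *met-2 set-25* against WT, 50 higher and 60 lower windows became 113 and 281 at an FDR of 0.05, 63 and 23 with TMM factors, 82 and 50 with DESeq2 and 0 and 0 with the signal index as a covariate. Against *set-25*, 188 and 168 became 293 and 458 at an FDR of 0.05, 247 and 55 with TMM factors, 280 and 109 with DESeq2 and 0 and 0 with the covariate. Against *met-2*, 1 and 2 became 39 and 43 at an FDR of 0.05, 35 and 0 with DESeq2, 2 and 3 over distinct windows and 0 and 0 with the covariate. For *met-2* against WT, DESeq2 called 1 lower window, and every other fit of either single mutant against WT called 0. The low-count filter left each count within 1.5 times that reported. The cause of these shifts was not tested.

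Leaving out 1 library at a time gave 5 to 106 higher and 2 to 115 lower windows against WT, 0 to 9 and 0 to 8 against *met-2*, and 68 to 221 and 25 to 204 against *set-25*. Against WT every one of the 50 and 60 windows kept its sign in these fits, with medians of 0.27 to 0.43 and -0.27 to -0.22. At the 45 and 60 of them with separate groups, the sign could not turn when 1 library was left out. A block for the replicate number gave other counts: 108 windows rose and 103 fell against WT, 58 and 19 against *met-2* and 244 and 253 against *set-25*, and 0 did in either single mutant; with TMM factors added, 138 rose and 41 fell against WT. The 50 and 60 windows reported were all among those called under the block alone. The numbers were not taken as pairs. Of 18 same-numbered pairs of libraries, 6 had a correlation of deviations above 0.1 (range -0.16 to 0.40, mean 0.091). All 6 were at replicates 2 or 3, and none had a *set-25* library. Replicate 2 also had the highest signal index in each genotype, and whether the numbers mark shared batches was not tested. Of 36 pairs with different numbers, 5 exceeded 0.1 (range -0.48 to 0.32, mean -0.046).

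Of single named windows, the sign turned for some that had not passed the test and, under the covariate, for *din-1* NM_182102 (log2FC of -0.055), which had. With the covariate, *T24B8.3* and *mnk-1* were each at -0.063, *nhr-21* at -0.12, *ceh-38* at -0.019, *hda-2* at 0.068, *clec-59* at 0.022 and *R09D1.12* at 0.081. *R09D1.12* was at 0.021 with TMM factors and 0.023 with DESeq2. Over the fits that left out 1 library, log2FC ranged from -0.046 to 0.025 for *R09D1.12*, from -0.24 to 0.20 for *R09D1.14*, from -0.046 to 0.079 for *F09E5.8*, from -0.018 to 0.049 for *nhr-21* and from -0.095 to 0.0038 for *hda-2*.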
